A study of Mus musculus with 4 samples.

Results

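Dendritic cells of mouse blood were picked out of mononuclear cells by a rule on 5 marker genes, and 64 of the 53380 cells in the 4 libraries met it. A member had at most 10% mitochondrial UMIs (unique molecular identifiers, each standing for 1 captured RNA molecule). Its UMIs of Flt3, Clec9a, Xcr1, Zbtb46 and Siglech together came to at least 2. It also had no UMI of the T cell genes Cd3e, Cd3d and Cd3g, at most 1 UMI of the B cell genes Cd79b and Ms4a1 together, Lyz2 below 5000 counts per 1000000 UMIs (CPM), and at most 1 UMI of Nkg7. The members were 14 cells at 0 h, 23 at 12 h, 13 at 24 h and 14 at 96 h. Because the rule reads measured counts, the genes it uses are given below as a description, with no test.

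The study followed blood through cerulein-induced acute pancreatitis and its recovery in C57BL/6J wild type mice aged 6 to 8 weeks. One library came from control mice, labelled 0 h, and one each from mice 12 h, 24 h and 96 h after 7 intraperitoneal injections of cerulein, a peptide that overstimulates the exocrine pancreas. The dose is given as 60 mg/kg, and the series' design text has 168 h in place of the 96 h of the sample labels. Mononuclear cells were prepared on a Ficoll-Hypaque gradient and profiled with the 10x Genomics 5' kit. The labels do not say how many mice each library holds, so differences between times have 1 library on each side and no test. The labels do not say whether the controls were injected, so injection and pancreatitis cannot be told apart.

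The libraries held 62481134, 60515205, 76597006 and 79516878 UMIs over all cells at 0, 12, 24 and 96 h. After the mitochondrial limit, 12073, 11027, 11371 and 13561 cells remained, with median UMIs per cell of 3738, 4100, 5057 and 4849. The 64 members were deeper than that, with 3214 to 24527 UMIs each and a median of 11082, and their summed UMIs were 149669, 328233, 123548 and 178514. A doublet caller marked 3.95% to 5.52% of cells in a library and 0 of the 64 members. Of the 16152 gene names in the files, 28 carry the prefix RT1-, by which rat histocompatibility genes are known, and 0 the mouse prefix H2-. Class II genes are therefore named here as RT1 genes although the labels give mouse.

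Dendritic cells sample antigen and present it to T cells on class II molecules. Plasmacytoid dendritic cells depend on the transcription factor Tcf4, carry Siglech in the mouse and are known for making type I interferon. Type 1 conventional dendritic cells depend on Irf8 and Batf3, carry Clec9a and Xcr1, and pass antigen from dead cells to CD8 T cells. Type 2 conventional dendritic cells are marked by Sirpa and Clec10a, and both conventional types carry Zbtb46.

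Siglech and Clec9a marked most members, almost without overlap, and 9 members held neither. Siglech was found in 36 members, with a median of 5 UMIs and a maximum of 14 among them, and 34 of them had at least 2 UMIs. Flt3, the receptor for the growth factor on which dendritic cells depend, was found in 35 members and Clec9a in 20. Only 4 members held Zbtb46 and 1 held Xcr1, and 1 cell held both Siglech and Clec9a. Siglech was in 7 of 13264 T cells and 5 of 11495 B cells, and Clec9a was in 0% of the T cells. Those cells were chosen by their own marker genes and by fewer than 2 UMIs of the 5 rule markers together. Cells with more were thus left out in advance, and how much free RNA added to this signal was not tested.

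The marker lists, which were not part of the rule apart from these genes, were checked next. At least 1 UMI was found for 15 of the 17 plasmacytoid genes in the files, with Ly6d and Cox6a2 at 0. The same held for 13 of 13 type 1 genes, 13 of 14 type 2 genes and 10 of 17 genes of mature migratory dendritic cells, where the defining Ccr7, Fscn1, Ccl22 and Relb were at 0. The summed level of the mature list was 187, 152, 210 and 140 CPM at 0, 12, 24 and 96 h. T cells, far more in number, held 17, 13, 13 and 16 genes of these 4 lists, and B cells 17, 13, 14 and 16. Such counts thus do not set members apart from other cells. By summed level the plasmacytoid list stood at 813 to 2145 CPM in members and 480 to 683 CPM in B cells. The type 1 list stood at 2340 to 2726 CPM in members and 1276 to 1651 CPM in NK cells. The type 2 list was lower in members, at 543 to 728 CPM, than in Lyz2-high cells, at 1632 to 2146 CPM.

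Markers of most other cells were low, in part through the rule itself. The T, B and NK cell lists hold Cd3e, Cd3d, Cd3g, Cd79b, Ms4a1 and Nkg7, which the rule kept at or near 0. It also capped Lyz2, which bears on the monocyte and neutrophil lists. Low sums of these lists were thus partly set in advance. The B cell list summed to 20.04 to 48.6 CPM, the plasma cell list to 24.3 to 33.6, the basophil list to 0 to 6.09 and the macrophage list to 0 to 9.14. The NK cell list summed to 113 to 281 CPM, carried by Klrb1a, with Ncr1, Gzmb and Eomes at 0. The T cell list summed to 194 to 280 CPM with Cd2 present and Trbc2 and Cd5 at 0. Monocyte markers summed to 608, 381, 251 and 269 CPM. The progenitor and erythroid lists were not low beside other cells. The progenitor list summed to 16.2 to 67.0 CPM, against at most 2.73 CPM in T, B, NK and Lyz2-high cells. Its gene Kit was in 18 of the 28 members without Siglech. The erythroid list summed to 80.2, 253, 64.8 and 129 CPM, and in those other cells at 12 h to 99.4 to 134 CPM. Neutrophil markers summed to 20.04 CPM in the controls, and to 335, 348 and 16.8 CPM in the libraries of 12, 24 and 96 h. S100a8, a neutrophil calcium-binding protein, stood at 6.68, 204, 219 and 5.60 CPM in members and at 8.62, 2365, 1172 and 102 CPM in B cells of the same libraries. Its level in members was thus at or below that of cells that should lack it.

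**Figure D1:**
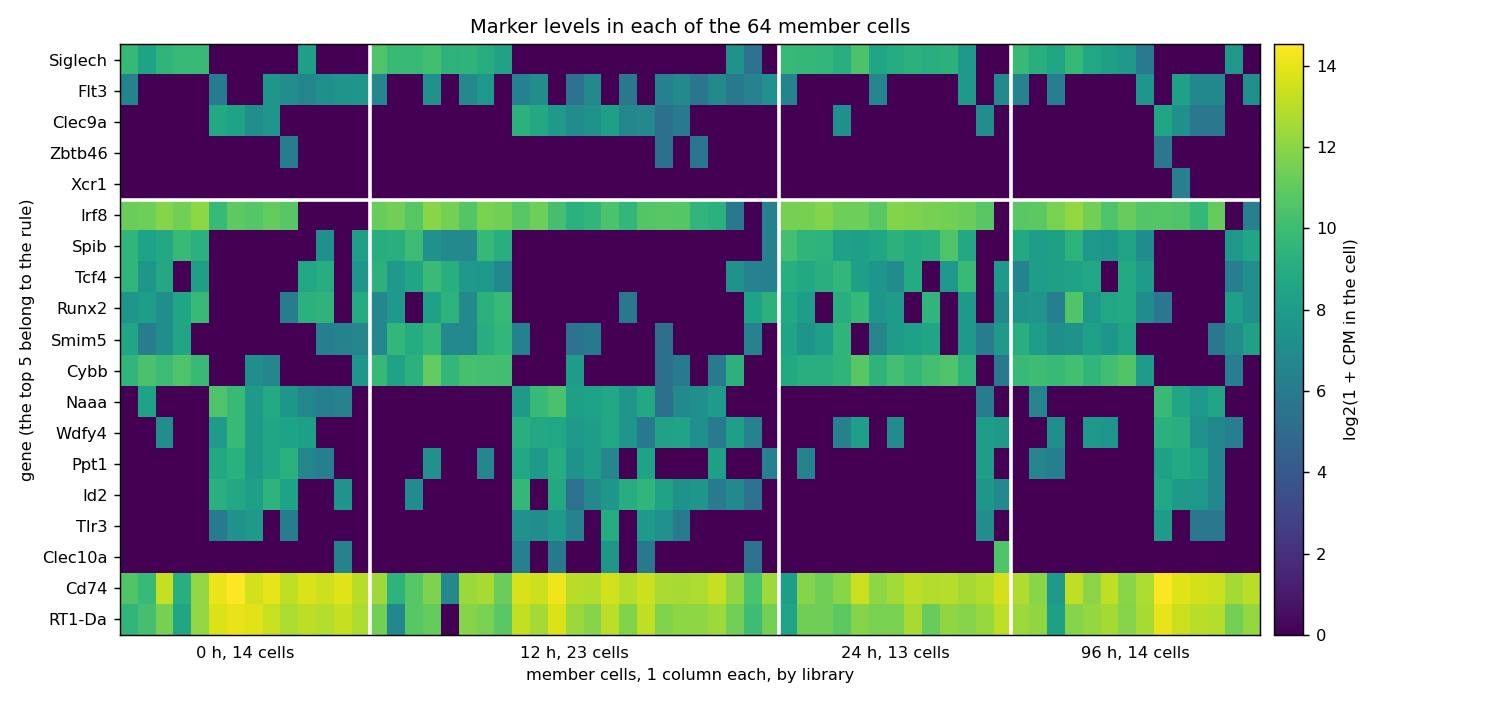
Each column is 1 of the 64 member cells, ordered by library, and each line a gene, coloured by log2(1 + CPM in that cell). The 5 genes of the rule lie above the white line. Spib and Tcf4 lie under the Siglech cells and Naaa and Wdfy4 under the Clec9a cells, and Irf8 is at 0 or 1 UMI in 10 cells.

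Single cells showed the same division in genes that the rule did not use. Irf8, the transcription factor shared by plasmacytoid and type 1 dendritic cells, had at least 9 UMIs in 54 members and at most 1 UMI in the other 10. This division, chosen after the values were seen, serves only to describe the cells. Of the 54 cells with Irf8, 32 carried Siglech. Spib, a transcription factor of plasmacytoid cells, was in 32 of these 32, Tcf4 in 29 and Cybb, a subunit of the NADPH oxidase, in 32. The lysosomal amidase Naaa was in 2 of them, and Wdfy4, needed for cross-presentation, in 7.

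The other 22 cells with Irf8 had no Siglech UMI, and 19 of them had Clec9a. Spib and Tcf4 were in 0 of the 22, while Naaa and Wdfy4 were in 22 of 22. Their pooled level of Cd74, the class II invariant chain, was 11504 CPM, against 4237 CPM in the 32 Siglech cells, and RT1-Da stood at 8165 against 2896 CPM. Pooled Irf8 was 1388 CPM in the 22 cells and 2643 CPM in the 32.

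The 10 members with at most 1 Irf8 UMI matched neither pattern, and no cell type name is given to them. They came from all libraries (4, 3, 1 and 2 cells at 0, 12, 24 and 96 h), 9 held Flt3, 4 held Siglech and 0 held Clec9a. Tcf4 was in 9 of the 10 and Runx2, another transcription factor of plasmacytoid cells, in 8, at pooled levels of 185 and 313 CPM. Cd74 stood at 7757 CPM and RT1-Da at 5174 CPM, between those of the other kinds. One of the 10, at 24 h, held all 26 UMIs of the type 2 marker Clec10a found in that library.

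Cells on either side of the threshold of 2 marker UMIs differed in level. The 27 cells with a marker sum of 1 that met the other criteria had pooled Irf8 of 437 CPM and Cd74 of 11661 CPM. The 12 members with a sum of exactly 2 had Irf8 at 729 CPM and Cd74 at 9309 CPM, and the 39 with a sum of at least 4 had Irf8 at 2027 CPM and Cd74 at 8026 CPM. Spib followed the same order, at 15.6, 84.3 and 266 CPM. Tcf4 did not follow it, at 68.7, 120 and 239 CPM, with 36.2 CPM at a sum of 3. The sum counts Siglech UMIs.

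The criterion on Cd3 genes removed more cells than it kept. Of the cells that failed only 1 criterion, 128 failed on Cd3 genes, 10 on B cell genes, 7 on Lyz2 and 1 on Nkg7. Of the 128, 118 carried Siglech (37, 29, 21 and 31 at 0, 12, 24 and 96 h), against 36 Siglech members. In these 118 cells Cd3g, a chain of the T cell receptor complex, was in 113 cells (95.8%), and 102 cells had Cd3g with neither Cd3e nor Cd3d. Their pooled UMIs were 366 of Cd3g, 24 of Cd3d and 17 of Cd3e.

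In 13264 T cells of the same libraries the 3 genes came together, with 68450 UMIs of Cd3g, 60100 of Cd3d and 54630 of Cd3e. Cd3g stood at 408, 302, 212 and 325 CPM in the 118 Siglech cells at 0, 12, 24 and 96 h, and at 848 CPM in the pooled T cells. Trbc2, a constant segment of the T cell receptor, stood at 3.32, 3.56, 0 and 54.2 CPM in the Siglech cells, against 679 CPM in T cells. The Siglech cells thus held Cd3g at less than the T cell level and, apart from 96 h, almost no Trbc2.

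**Figure D2:**
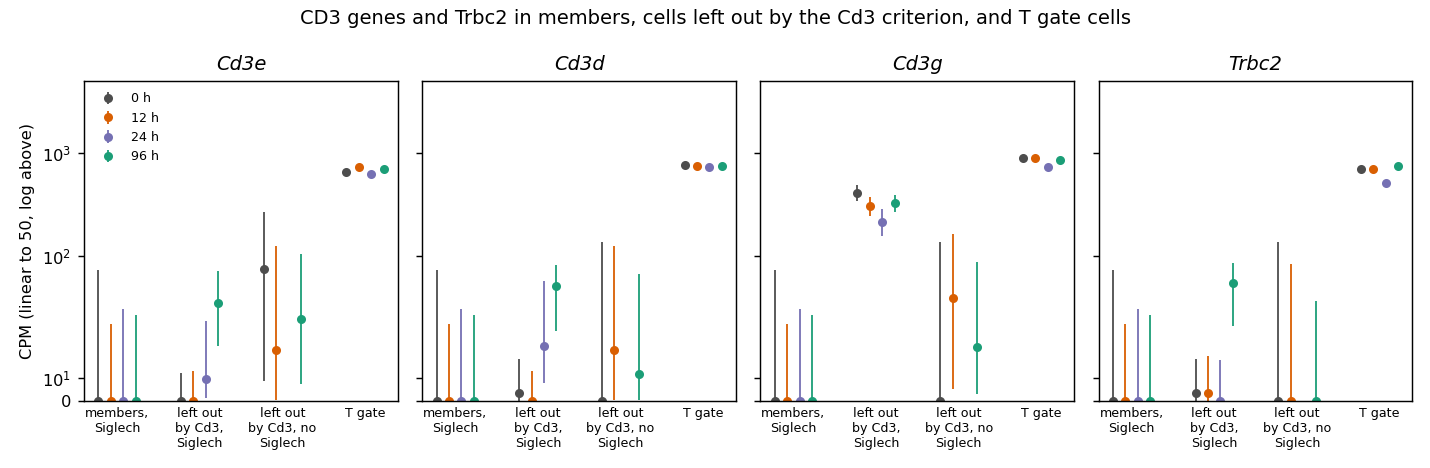
CPM of 3 CD3 genes and Trbc2 (linear to 50, logarithmic above) in Siglech members, in cells that failed only the Cd3 criterion with and without Siglech, and in T cells, 1 point per library with its exact Poisson 95% interval. At 24 h no cell without Siglech failed only that criterion. Cd3g is high in the Siglech cells left out, where Cd3e and Cd3d are near 0 at 0 h and 12 h.

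The Cd3 genes were also counted in cells chosen without them. Among 154 Siglech cells picked with no Cd3 criterion, Cd3g was in 73.4% (95% exact binomial interval 65.7% to 80.2%), at 246 CPM. Among 15298 B cells picked likewise it was in 16.7%, at 112 CPM, and among 14396 Lyz2-high cells in 6.05%, at 26.8 CPM. Among 894 NK cells with no Trbc2 UMI it was in 12.2%, at 64.5 CPM. Trbc2 was in 7.30% of these B cells and 4.38% of these Lyz2-high cells. Where no Cd3 UMI was allowed it was in 2.54% and 1.91%. How far free RNA or doublets with T cells gave the Cd3 UMIs was not tested. The median depth was 8097 to 11618 UMIs per library in the 118 cells left out, 2830 to 3378 in those B cells and 3707 to 6037 in those Lyz2-high cells. In the B cells and the Lyz2-high cells the pooled levels of Cd3e (68.1 and 21.7 CPM) and Cd3d (78.1 and 25.7 CPM) were nearer to that of Cd3g. In the Siglech cells Cd3e was at 11.4 CPM and Cd3d at 16.1 CPM. In pooled UMIs Cd3g was thus many times the level of the other chains in the Siglech cells. In pooled T, B and Lyz2-high cells the 3 chains stood within a factor of 2. B cells passed that factor at 0 h (Cd3g 143 and Cd3e 68.8 CPM) and at 24 h (79.7 and 38.9 CPM). Cell by cell, 1521 of the 2559 B cells with Cd3g and 434 of the 871 Lyz2-high cells with it had neither Cd3e nor Cd3d. In the Siglech cells that was 102 of 113.

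In the 118 Siglech cells left out, Irf8, Tcf4, Spib and Cybb stood somewhat above their level in the 36 Siglech members, and Cd74 somewhat below. These are pooled levels with no test. Irf8 stood at 2632 CPM in the cells left out and 2161 CPM in members, Tcf4 at 363 and 335 CPM, Spib at 528 and 413 CPM, and Cybb at 874 and 780 CPM. Cd74 stood at 4042 and 4392 CPM. Results on Siglech-positive members rest on the part of these cells without a Cd3g UMI. Values with Cd3g left out of the rule are given below for the shares, the counts of genes and some of the ratios. That alternative was chosen after the data were seen.

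Members made up 0.116% of the cells kept at 0 h (14 of 12073; exact binomial 95% interval 0.0634% to 0.194%). The share was 0.209% at 12 h (0.132% to 0.313%), 0.114% at 24 h (0.0609% to 0.195%) and 0.103% at 96 h (0.0565% to 0.173%). Intervals here and below cover counting error only. The ratio to 0 h was 1.80 at 12 h (0.887 to 3.78), 0.986 at 24 h (0.427 to 2.26) and 0.890 at 96 h (0.393 to 2.01). With the rule as set, no difference from 0 h was thus detectable at this number of cells.

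Siglech was in 6 of 14 members at 0 h (42.9%; 17.7% to 71.1%), in 10 of 23 at 12 h (43.5%; 23.2% to 65.5%), in 11 of 13 at 24 h (84.6%; 54.6% to 98.1%) and in 9 of 14 at 96 h (64.3%; 35.1% to 87.2%). Members without Siglech numbered 8, 13, 2 and 5. As a share of cells kept they stood at 0.265 times the 0 h level at 24 h, with an interval of 0.0275 to 1.33. The Siglech share was highest at 24 h, with an interval that overlapped that of 0 h.

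**Figure D3:**
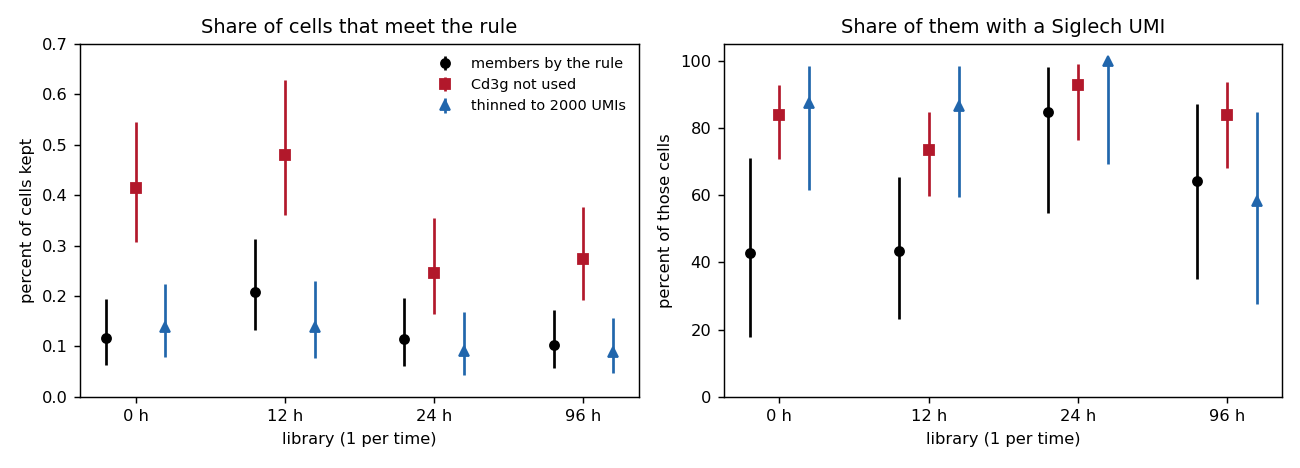
Left, percent of cells kept that met the rule, and right, percent of those with a Siglech UMI, per library, with exact binomial 95% intervals. Without the Cd3g criterion (squares) the share of members is 0.246% to 0.481% and that with Siglech 73.6% to 92.9%; triangles show cells thinned to 2000 UMIs.

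With Cd3g left out of the rule, members numbered 50, 53, 28 and 37, or 0.414%, 0.481%, 0.246% and 0.273% of cells kept. The ratio to 0 h was then 1.16 at 12 h (0.774 to 1.74), 0.595 at 24 h (0.360 to 0.963) and 0.659 at 96 h (0.419 to 1.03). Siglech was in 84.0%, 73.6%, 92.9% and 83.8% of these. With each cell thinned to 2000 UMIs, which left out 438, 243, 404 and 191 shallower cells, 16, 15, 10 and 12 cells met the rule (0.138%, 0.139%, 0.0912% and 0.0898%), and 87.5%, 86.7%, 100% and 58.3% of them had Siglech. The order of the 24 h and 96 h shares thus changed with Cd3g left out, and the Siglech mix changed under both settings. With Cd3g left out the 24 h interval also lay wholly below the 0 h level, unlike that of the rule as set. That interval covers counting error only.

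Members with and without Siglech were compared over the 4 libraries, each library giving 1 sum per population and serving as a block. P-values here and in the next comparison rest on a spread between libraries that edgeR estimates with information shared across genes. Very small values therefore do not measure the spread of a single gene over 4 libraries. The 4 libraries are also 4 different times, and at 24 h only 2 members lacked Siglech. Genes of plasmacytoid cells were higher in Siglech-positive members and genes of type 1 conventional cells and class II were higher in the others. The split used the rule marker Siglech, and members without it could enter only through Flt3, Clec9a, Xcr1 or Zbtb46. Of these 28 members, 19 held Clec9a. Differences in genes that go with these markers were thus partly set in advance. Of 1242 genes tested, 146 were higher (11.8%) and 122 lower (9.82%) in Siglech-positive members at an adjusted p under 0.05 in edgeR's quasi-likelihood test with Benjamini-Hochberg adjustment over all genes tested. At an unadjusted p under 0.05 the number was 387, and DESeq2 called 87 higher and 79 lower. With Cd3g left out of the rule, 398 genes were higher and 314 lower of 2935 tested. Only 1 library held at least 10 cells of both populations, the minimum first set for this test, so all 4 libraries were used without a minimum.

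Of the plasmacytoid list 6 genes could be tested and 6 were higher in Siglech-positive members, with a median log2 fold change of 2.61 against 0.01 over all genes. Spib stood at 454, 312, 644 and 287 CPM in Siglech-positive members at 0, 12, 24 and 96 h, and at 50.5, 4.56, 0 and 61.7 CPM in the others. Every Siglech-positive sum lay above every sum of the others, and the log2 fold change was 3.68 ± 0.47 (SE, n = 4 libraries; adjusted p = 3.6e-05 in edgeR's quasi-likelihood test). Tcf4, the factor that sets plasmacytoid identity, stood at 375, 293, 469 and 236 CPM against 90.9, 4.56, 125 and 24.7 CPM (2.91 ± 0.47, adjusted p = 0.00032, edgeR). Runx2 was higher by 2.20 ± 0.36, Bcl11a, which acts upstream of Tcf4, by 2.55 ± 0.43, Smim5 by 2.38 ± 0.45 and Nucb2 by 2.66 ± 0.48. All 6 were higher in 4 of 4 libraries.

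Spib was among the 10 genes with the largest positive difference. Cybb stood at 889, 724, 786 and 779 CPM in Siglech-positive members and at 50.5, 41.1, 31.3 and 0 CPM in the others (log2 4.43 ± 0.33, adjusted p = 1.5e-07, edgeR). Blnk, an adaptor of B cell receptor signalling, was higher by 3.33 ± 0.37 on the log2 scale (pooled 545 against 46.4 CPM), Gapt, an adaptor that binds Grb2, by 6.22 ± 0.51 (453 against 4.64 CPM), and Cyb561a3, a lysosomal iron reductase, by 4.85 ± 0.37 (1347 against 39.4 CPM). Kdr, a receptor for vascular endothelial growth factor, stood at 237, 211, 153 and 174 CPM in Siglech-positive members and at 0 in every library of the others, at least 27.2-fold higher over the floor of 3 counts summed over the group. Nedd4, Pygm, Hpse and Cd164 completed the 10 largest, with log2 fold changes of 5.30, 4.55, 4.39 and 3.26. Of 2 trafficking receptors tested both were higher, Cxcr4 by 2.91 ± 0.38 and Itgb2 by 0.83 ± 0.26.

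The type 1 list had 5 genes tested, of which 4 were lower in Siglech-positive members and Irf8 was higher. Irf8 stood at 2332, 1649, 2871 and 1979 CPM in Siglech-positive members and at 1070, 1168, 783 and 1321 CPM in the others, with no overlap between the populations (log2 0.87 ± 0.19, adjusted p = 0.0034, edgeR). Naaa stood at 119, 0, 0 and 10.3 CPM against 454, 351, 31.3 and 407 CPM (log2 -3.84 ± 0.55, adjusted p = 0.00011, edgeR). Id2, which opposes Tcf4, stood at 0, 36.7, 0 and 0 CPM against 323, 283, 157 and 210 CPM (log2 -4.27 ± 0.58, adjusted p = 6.1e-05, edgeR). Wdfy4 was lower by a log2 fold change of -2.15 ± 0.33 and the lysosomal thioesterase Ppt1 by -3.53 ± 0.41. Tlr3, a sensor of double-stranded RNA, had 0 UMIs in Siglech-positive members of every library and 70.7, 110, 62.6 and 86.4 CPM in the others, too low for that test.

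The gene with the largest negative difference was Slpi, a secreted inhibitor of neutrophil elastase. It stood at 0, 18.3, 21.8 and 0 CPM in Siglech-positive members and at 5966, 4938, 2317 and 14209 CPM in the others (log2 -9.12 ± 0.36, adjusted p = 1.8e-10, edgeR). Slpi was uneven between cells: 1 cell held 1015 of the 1151 UMIs at 96 h and 72 of the 76 at 24 h were likewise in 1 cell. Anxa1, which binds phospholipids and limits inflammation, was lower by -5.23 ± 0.32 on the log2 scale (pooled 34.4 against 1357 CPM), and the interferon-induced membrane proteins Ifitm1 and Ifitm2 by -4.22 and -4.23. Mnda, Calhm6 and Pstpip1 lay between -3.72 and -3.70. Klrb1a, on the NK cell list, was also lower in Siglech-positive members, at 65.9 against 320 CPM pooled.

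**Figure D4:**
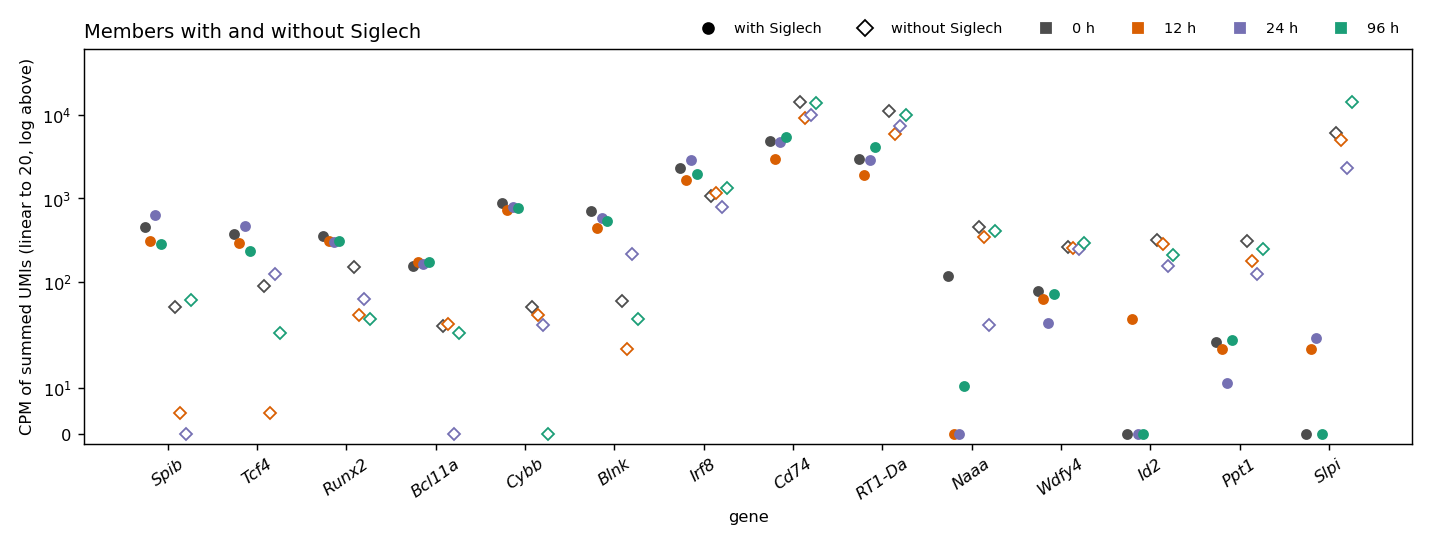
CPM of summed UMIs (linear to 20, logarithmic above) for 14 genes in members with Siglech (filled) and without (open), 1 point per library, with no error bars. For Spib, Tcf4, Cybb, Cd74 and RT1-Da the filled and open points of the same library do not overlap.

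Class II genes were lower in Siglech-positive members. Of 6 genes tested on the class II list, 0 were higher and 5 lower, with a median log2 fold change of -1.77. Cd74 stood at 4881, 2987, 4705 and 5415 CPM against 13951, 9206, 9894 and 13937 CPM in the others, and each Siglech-positive sum was below each of the others (log2 -1.46 ± 0.12, adjusted p = 3.6e-07, edgeR). RT1-Da stood at 2944, 1888, 2860 and 4143 CPM against 10953, 5952, 7232 and 9950 CPM (log2 -1.59 ± 0.13). RT1-Db1 was lower by a log2 fold change of -2.11 ± 0.16, RT1-Ba by -1.94 ± 0.17 and RT1-Bb by -2.81 ± 0.31, each in 4 of 4 libraries. Ifi30, a lysosomal thiol reductase, did not pass (log2 0.12, adjusted p = 0.64, edgeR).

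Members without Siglech were then set against Lyz2-high cells, 12488 cells with Lyz2 of at least 5000 CPM, among which the monocytes of blood fall. These cells also had fewer than 2 UMIs of the 5 marker genes together. Both groups were thus chosen on Lyz2 and the marker genes. Differences in genes that go with either were partly set in advance. Members without Siglech were higher in Irf8 and in most class II and type 1 genes tested, and lower in every monocyte gene tested and in 7 of 12 genes of the type 2 list. Of 8544 genes tested, 522 were higher (6.11%) and 1296 lower (15.2%) in the members at an adjusted p under 0.05 in edgeR's quasi-likelihood test, and 2660 had an unadjusted p under 0.05. DESeq2 called 440 higher and 793 lower. Without the 12 h library, which holds 13 of the 28 members compared, edgeR called 1121 genes in place of 1818, so the size of this list rests on that library.

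Of 11 type 1 genes tested, 7 were higher and 3 lower, with a median log2 fold change of 2.69 against -0.30 over all genes. Irf8 stood at 1146 CPM in the members and 76.6 CPM in Lyz2-high cells, pooled (log2 3.49 ± 0.21, adjusted p = 9.3e-58, edgeR, higher in 4 of 4 libraries). Tlr3 was higher by 7.27 ± 0.51, Cbfa2t3, a corepressor that keeps Irf8 expressed in dendritic progenitors, by 4.99 ± 0.48, Wdfy4 by 2.69 ± 0.26, Ppt1 by 3.08 ± 0.28 and Rab7b by 2.90 ± 0.35. Cadm1, an adhesion molecule of type 1 cells, was higher by 2.07 in 3 of 4 libraries. Itgax and Cd8a were lower, and Id2 was lower by -0.65. Naaa did not pass (log2 0.50, adjusted p = 0.11, edgeR).

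Other dendritic cell lists were mixed or lower in this comparison. Of 12 type 2 genes, 7 were lower, Sirpa among them, and 1, Esam, was higher, with a median log2 fold change of -2.19. Of 10 genes of the mature migratory list, 5 were lower and 0 higher. The plasmacytoid list had 5 of 10 genes higher (Spib, Runx2, Bcl11a, Smim5 and Tcf4) and 3 lower, and the list of dendritic cell transcription factors 6 of 16 higher and 7 lower. The 22 members with Irf8 and no Siglech held 0 UMIs of Spib, 0 of Tcf4 and 3 of Runx2. The 9 members with neither Siglech nor Clec9a held 11, 16 and 27. The calls of Spib, Tcf4 and Runx2 thus rest on a small part of the members compared. Bcl11a was more widespread, in 10 of the 28 members without Siglech, and Smim5 was not divided in this way.

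Of 11 class II genes tested, 9 were higher and 0 lower, with Ctss and Lgmn not called, and a median of 3.36. Cd74 stood at 11236 CPM in the members and 1360 CPM in Lyz2-high cells (log2 2.70 ± 0.19), RT1-Da at 7947 and 616 CPM (3.36 ± 0.19), RT1-DOa at 190 and 7.99 CPM (4.17 ± 0.30) and Ciita, the regulator of class II transcription, at 46.4 and 4.68 CPM (3.02 ± 0.54). Among class I genes, B2m was lower in the members (log2 -1.88 ± 0.18). The chemokine receptor Ccr6 was higher by 3.31 in 3 of 4 libraries.

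The 10 genes with the largest positive difference were Hs3st1, Parm1, Tlr3, Rab30, Klri1, Smim5, Tubb2b, Dpp4, Arhgap5 and Ctse, with log2 fold changes of 5.60 to 8.66. Hs3st1, a heparan sulfate sulfotransferase, stood at 197 CPM in the members and 0.352 CPM in Lyz2-high cells, and Ctse, an endosomal protease, at 350 and 5.15 CPM. The cell cycle list had 3 of 8 genes higher and 0 lower.

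All 11 monocyte genes tested were lower, with a median log2 fold change of -5.36. As the groups were chosen by their Lyz2 level, this direction was partly set in advance. Csf1r, the receptor for the macrophage growth factor, stood at 83.5 CPM against 1013 CPM (-3.72 ± 0.27), and Fcgr3a, an Fc receptor, at 13.9 against 422 CPM (-5.36 ± 0.42). Vcan, a proteoglycan of classical monocytes, had 0 UMIs in the members and 370 CPM in Lyz2-high cells, at least 53.2-fold lower. Pla2g7, Il1rn, Gadd45a, Trem1, Ethe1, Pstpip2, Lmna, Pmp22 and Csf3r also had 0 UMIs, at least 14.1-fold to at least 40.6-fold lower. The type I interferon list had 15 of 21 genes lower and 1 higher, and the NF-kB list 9 of 17 lower and 0 higher. All 5 neutrophil genes tested were lower, with the same limit from the choice on Lyz2.

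Members of each time were compared with those at 0 h by their summed UMIs, with 1 library per time and so no test and no p. Ratios are given with exact conditional binomial 95% intervals, which cover counting error only. Siglech-positive cells gave 33.8%, 33.2%, 74.1% and 54.6% of members' UMIs at 0, 12, 24 and 96 h, so the mix moved with the 24 h and 96 h ratios, and its part in them was not tested. All comparisons share the 0 h library of 14 cells. The median log2 ratio over all measured genes was 0.18, 0.08 and 0.08 at 12, 24 and 96 h, and values below are not shifted by it.

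At 12 h members held more Stmn1, Mt1 and Prdx4 and less class II than at 0 h. Of 2827 genes with at least 50 CPM in either library and 20 UMIs over both, 339 (12.0%) stood 2-fold or more above 0 h and 102 (3.61%) 2-fold or more below. Stmn1, which destabilises microtubules in dividing cells, stood at 6.68 (1 UMI), 165, 56.7 and 5.60 CPM at 0, 12, 24 and 96 h. Its 54 UMIs at 12 h lay in 8 of 23 cells and gave a ratio of 24.6 (4.24 to 990). Mt1, a metallothionein induced by glucocorticoids and metals, stood at 187, 707, 502 and 336 CPM, a ratio of 3.78 at 12 h (2.55 to 5.81), with UMIs in 22 of 23 cells.

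By kind of member, Mt1 at 12 h was 9.13 times 0 h in members without Siglech (4.86 to 19.3) and 0.773 times in those with it (0.417 to 1.47), a difference that was not tested. Prdx4, a peroxiredoxin of the endoplasmic reticulum, went from 13.4 to 128 CPM, a ratio of 9.58 (2.49 to 81.7). Rfc2, which loads the replication clamp, and Pacsin1, an endocytic adaptor and plasmacytoid marker, each had 0 UMIs at 0 h and 67.0 CPM at 12 h, at least 3.34-fold higher. Below 0 h were RT1-Bb, Fxyd7, Btg2, RT1-DOa and RT1-Db1. Btg2, an antiproliferative immediate early gene, stood at 762, 329, 874 and 588 CPM, a ratio of 0.432 at 12 h (0.329 to 0.567), and was below 0 h in both kinds of member (0.456 and 0.411). Fxyd7 was in 3 cells at 0 h and 3 at 12 h, at a ratio of 0.161.

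The fixed lists were counted at 1.5-fold, which 27.0% of 2987 measured genes exceeded upward and 11.4% downward at 12 h. Of 5 cell cycle genes, 4 exceeded it upward and 0 downward, with a median log2 ratio of 0.75. Pcna, the replication clamp, stood at 107 CPM at 0 h and 180 at 12 h, and Mcm5, a helicase subunit, at 6.68 and 85.3 CPM. The plasmacytoid list had 3 of 9 higher and 4 lower, the type 1 list 1 of 7 higher and 1 lower, the glucocorticoid list 4 of 8 higher and 2 lower, and the interferon list 2 of 4 higher and 1 lower. The immediate early list had 1 of 9 higher and 3 lower.

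At 24 h the Siglech-carrying kind dominated, and plasmacytoid genes were high and type 1 genes low. Of 1784 genes, 163 (9.14%) stood 2-fold or more above 0 h and 123 (6.89%) as far below. Naaa stood at 341, 235, 8.09 and 190 CPM at 0, 12, 24 and 96 h, and its 1 UMI at 24 h gives a ratio of 0.0238 (0.000590 to 0.138). Slpi stood at 3949, 3302, 615 and 6448 CPM, a ratio of 0.156 at 24 h. Aif1 and Fgl2, both found in myeloid cells, had ratios of 0.0742 and 0.115. Each of Naaa and Slpi was lower in Siglech-positive members at every time, and only 2 of the 13 members at 24 h lacked Siglech. Within members without Siglech, Naaa stood at 454 CPM at 0 h and 31.3 CPM at 24 h, and Slpi at 5966 and 2317 CPM. The part of the mix in these ratios was not tested.

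Above 0 h at 24 h were Clec10a, Nrgn, B3gnt2, Padi2 and Ddr1. Clec10a stood at 210 CPM at 24 h, all of it in 1 cell. B3gnt2 was not above 0 h with Cd3g left out of the rule (log2 ratio -0.046), nor in Siglech-positive cells picked so (-0.29). Nrgn, a calmodulin-binding protein, stood at 13.4, 27.4, 162 and 39.2 CPM, in 6 of 13 cells at 24 h. The plasmacytoid list had 5 of 6 genes at least 1.5-fold higher and 0 lower, against 20.9% and 15.0% of all genes, and the type 1 list 4 of 5 lower, with Irf8 the 1 higher. Within Siglech-positive members, however, the 24 h ratio was 1.42 for Spib (0.862 to 2.40) and 1.25 for Tcf4 (0.713 to 2.27). With Cd3g left out of the rule these ratios in Siglech-positive cells were 0.973 and 0.819.

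At 96 h fewer genes stood apart from 0 h. Of 2109 genes, 125 (5.93%) stood 2-fold or more above 0 h and 53 (2.51%) as far below. Tifab, an adaptor that restrains Toll-like receptor signalling, stood at 33.4, 116, 32.4 and 196 CPM, a ratio of 5.87 at 96 h (2.29 to 19.2). Ndufs5, Apex1, Pebp1 and Sin3b had ratios of 3.10 to 4.36. With Cd3g left out of the rule the log2 ratio of Pebp1 was -0.10, and -0.22 in the Siglech-positive cells. Lyve1, a hyaluronan receptor, stood at 281, 104, 316 and 61.6 CPM, a ratio of 0.220 at 96 h (0.102 to 0.434), and 21 of its 42 UMIs at 0 h lay in 1 cell. S100a4 and Ppp4r2 had ratios of 0.507 and 0.233. The plasmacytoid list had 1 of 7 genes at least 1.5-fold higher and 0 lower, against 16.3% and 9.34% of all genes, and the type 1 list 0 of 5 higher and 3 lower.

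Class II genes were below 0 h in members at all 3 later times. Cd74 stood at 10884, 7138, 6046 and 9282 CPM at 0, 12, 24 and 96 h, RT1-Da at 8245, 4600, 3990 and 6778 CPM, RT1-Db1 at 6260, 3370, 1926 and 4801 CPM and RT1-Ba at 4670, 2705, 2072 and 3047 CPM. Each gene was highest at 0 h and lowest at 24 h. Ifi30 was not lower, at 2031, 2590, 2185 and 2101 CPM. Of the measured genes of the list, 6 of 9 were at least 1.5-fold lower at 12 h, 7 of 8 at 24 h and 4 of 8 at 96 h, and 0 were higher at any time. The list's median log2 ratio was -0.79, -1.11 and -0.50.

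The kinds of member were then taken apart, as the mix changed with time. Within members without Siglech the class II list's median was -0.84 at 12 h, -0.67 at 24 h (2 cells) and -0.33 at 96 h. Within Siglech-positive members it was -0.54 at 12 h, -0.09 at 24 h and 0.26 at 96 h. With Cd3g left out of the rule, the Siglech-positive cells had -0.73, -0.31 and -0.25. The 12 h value was therefore below 0 h in each kind, while the 24 h value was nearer to 0 within each kind than over all members. RT1-Da at 12 h was 0.641 times 0 h in Siglech-positive members (0.517 to 0.797), 0.543 times in the others (0.501 to 0.590) and 0.568 times in Siglech-positive cells with Cd3g left out of the rule (0.517 to 0.624).

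Other cells of the same libraries showed lower class II at 12 h too. The list's median log2 ratio was -0.39, -0.28 and -0.05 at 12, 24 and 96 h in B cells, and -1.35, -1.54 and -0.26 in Lyz2-high cells. RT1-Da stood at 8741, 5818, 7619 and 8365 CPM in B cells and at 1162, 429, 386 and 892 CPM in Lyz2-high cells. Whether the members differed from these cells in their class II ratio was not tested.

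RT1-Bb was the class II gene furthest from its 0 h level. It stood at 3955, 567, 494 and 840 CPM, with ratios of 0.143 at 12 h (0.121 to 0.169), 0.125 at 24 h (0.0943 to 0.163) and 0.212 at 96 h (0.176 to 0.255). In members without Siglech it stood at 5825, 739, 1127 and 1568 CPM, and in those with Siglech at 296, 220, 273 and 236 CPM. In B cells it stood at 2131, 969, 1278 and 1092 CPM and in Lyz2-high cells at 340, 67.6, 73.8 and 121 CPM, so its 0 h value was the highest in these cells as well. With the mitochondrial limit of 5%, which leaves 2 Siglech-positive members in the control library, RT1-Bb had 1 UMI at 0 h, and the log2 ratios were 3.59 (1.09 to 8.90), 3.83 (1.26 to 9.17) and 1.44 (-1.52 to 6.93).

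Single cells with at least 10 UMIs of RT1-Ba, the partner chain of RT1-Bb, had between 0 and 1.48 UMIs of RT1-Bb for each UMI of RT1-Ba. Cells with RT1-Bb under 10% of RT1-Ba numbered 2 of 10 at 0 h, 8 of 16 at 12 h, 5 of 9 at 24 h and 5 of 10 at 96 h. Among B cells the share was 11.6%, 35.3%, 34.8% and 22.0% of 1457, 1324, 1697 and 2132 cells. This limit was chosen after the values were seen. Such cells were present in every library and in both cell types, at their lowest share in the controls.

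**Figure D5:**
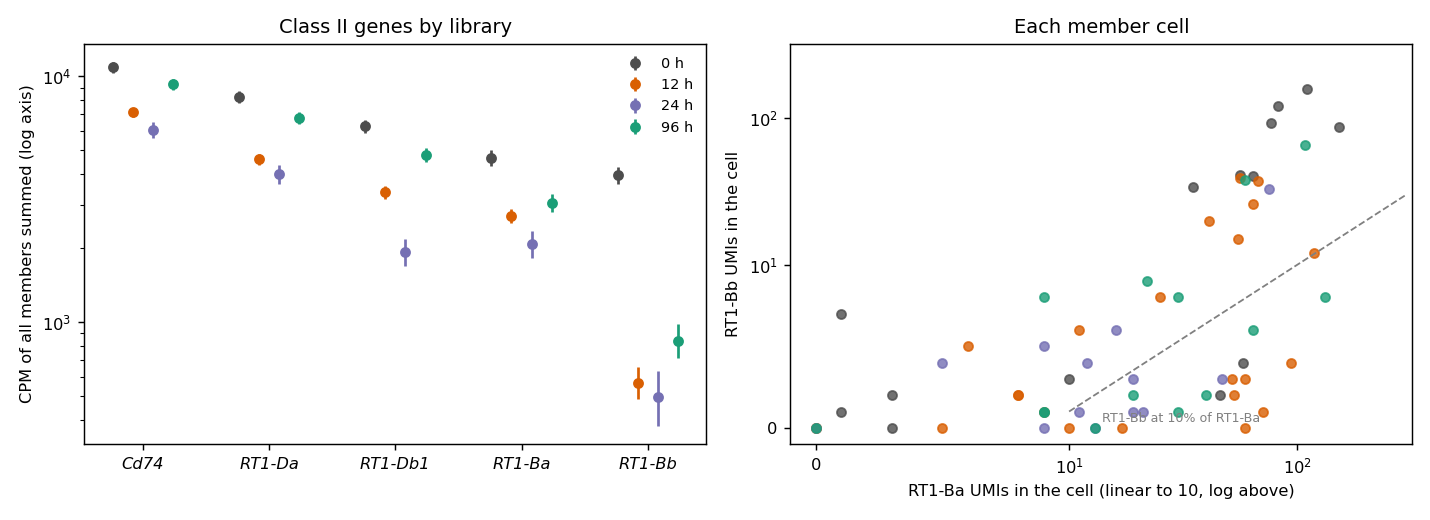
Left, CPM of 5 class II genes over all members summed (log axis), 1 point per library with its exact Poisson 95% interval. Right, RT1-Ba and RT1-Bb UMIs of each member cell (linear to 10, logarithmic above), in the same colours; below the dashed line RT1-Bb is under 10% of RT1-Ba, as in 2 of 10 cells at 0 h and 8 of 16 at 12 h.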

How the data were processed

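Mononuclear cells of mouse blood were measured in 4 single-cell libraries, each of which is a group of its own by its label. The authors deposited a matrix of raw UMI counts per gene and cell for each library, with no normalization. Cell Ranger, Seurat and mm10 are named in the submitters' processing notes; neither version nor role is given in the sources used here. The cells held at least 301 detected genes and at most 15.0% mitochondrial UMIs. Barcode lists (4340 barcodes for 14569 control columns, and the same 11663 barcodes at 12 h and 24 h) could not name columns and were not used; 0 cells had identical counts in 2 libraries.

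The members and the 28 gene lists were chosen with earlier results of these data known. Cells were selected and UMIs summed in Python 3.11.15 with scanpy 1.11.5 and scipy 1.17.1. Shares have exact Clopper-Pearson intervals, levels exact Poisson intervals and ratios exact conditional binomial intervals, all at 95%. A level of 0 was set to a floor of 3 counts for folds. Scrublet was run per library, and its calls were left out only as an alternative.

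T cells had at least 2 UMIs of the Cd3 genes, and B cells at least 2 of Cd79b and Ms4a1. All T, B, NK and Lyz2-high cells had fewer than 2 UMIs of the 5 marker genes together. The 2 tests used edgeR 4.0.16 in R 4.3.3 (quasi-likelihood, TMM, filterByExpr, library as block, Benjamini-Hochberg over all genes tested), with DESeq2 1.42.0 as an alternative. The library pairs the populations because both come from it. The 12 genes of the rule gave no result. The design's minimum of 10 cells of both populations left 1 library, so the first test used all 4 with no minimum, a change made after seeing the data. In simulated counts 90.5% of 8-fold changes were recovered among 1244 genes in the test of Siglech, and 68.0% among 8549 genes in the test against Lyz2-high cells.

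Named over time were 5 genes in each direction, taken in order of how far the nearer bound of the ratio's interval lay from 1. They needed 50 CPM at one of the times, 20 UMIs in the sum of the pair, and 25% of the highest level in T, B, NK or Lyz2-high cells. Named in the tests were the 10 with the largest fold change in each direction among genes called, alike in direction in every library and with at least 50 CPM. Mitochondrial, ribosomal, haemoglobin, immunoglobulin, T cell receptor, sex-linked and rule genes were excepted. From the dendritic cell lists any gene of at least 50 CPM could be named, and from other lists those at either end. Further genes named to describe markers, the cell cycle list and the Cd3 criterion were chosen after their values were seen. Some genes are not reported here.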

Additional observations from a re-analysis of the deposited data

Results flagged for a closer look

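A pair of genes moved in opposite directions in the kinds of member, each over 1 library per time, and neither difference was tested. Lyve1 at 24 h stood at 0.504 times its 0 h level in members with Siglech (0.266 to 0.953) and at 2.94 times in the 2 members without (1.45 to 5.91). RT1-Db1 at 96 h stood at 1.64 times its 0 h level in members with Siglech (1.25 to 2.18) and at 0.897 times in the others (0.809 to 0.995). With Cd3g left out of the rule, RT1-Db1 in Siglech-positive cells was at 0.765 times 0 h, below 0 h as in the others.

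Signal also appeared in cells that the rule leaves out. The criterion on Cd3 genes alone kept out 128 cells, of which 118 carried Siglech, more than the 64 members. A further 7 cells met the rest of the rule with more than 10% mitochondrial UMIs.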

How the results depend on the processing

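Over all alternatives, 78 main values stayed within their limits and 31 moved. Single genes named in the edgeR tests kept their side of the threshold in the 411 cases where the gene was still tested; with Siglech of at least 2 UMIs that was 17 genes. Of those named over time, 195 values stayed, 64 moved and 15 reversed, and 10 with 0 UMIs at 0 h gave only a bound with no direction. Counts of cells limit every time comparison.

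With mitochondrial UMIs at most 5% the 0 h library keeps 2 members of 584 cells, and shares were 0.342%, 0.836%, 0.351% and 0.184% at 0, 12, 24 and 96 h, with Siglech in 100% at 0 h. Genes at least 2-fold from 0 h were 46 at 24 h (286 as reported) and 69 at 96 h (178). On 1 to 5 UMIs at 0 h, log2 ratios reversed for RT1-Bb (3.59) and RT1-Db1 (3.69) at 12 h, RT1-Bb (3.83) at 24 h, and RT1-Bb (1.44), S100a4 (0.092) and RT1-Ba (3.19) at 96 h. Of the 10 bounds, 9 arose here, those of Stmn1, Rfc2, Pacsin1 and Prdx4 among them. Siglech was in 100% of members at 24 h with a marker sum of at least 3, and in 87.5%, 86.7% and 100% at 0, 12 and 24 h after thinning.

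With Cd3g not used (chosen after seeing the data, like the divisions by Siglech) shares were 0.414%, 0.481%, 0.246% and 0.273%, with Siglech in 84.0% at 0 h and 73.6% at 12 h. Genes at least 2-fold from 0 h were 176 at 12 h (441 as reported) and 92 at 96 h, and B3gnt2 (-0.046, 24 h) and Pebp1 (-0.10, 96 h) reversed. Siglech-positive members alone gave 144, 119 and 103 genes at 12, 24 and 96 h and reversed Mt1 (-0.37) at 12 h and RT1-Ba (0.37) at 96 h; with Cd3g also not used they gave 188 at 12 h and reversed Mt1 (-0.029), Fxyd7 (0.69), RT1-DOa (2.15, on 2 UMIs at 0 h), B3gnt2 (-0.29) and Pebp1 (-0.22). Members without Siglech gave 138 and 97 genes at 24 h and 96 h. At 12 h, Lyz2 under 1000 CPM gave 282 and a minimum of 100 CPM 191.

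The Siglech comparison called 268 genes as reported, 166 with DESeq2, 463 with no filter, 712 with Cd3g not used and 183 to 268 leaving out each library. The comparison with Lyz2-high cells called 1818, and 1121 (without 12 h) to 1805 leaving out each library. With no replicate block, that is without pairing by library, they called 251 and 1784, and leaving out the block changed no other call beyond 1.5 times. The cause of these changes was not tested.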
